A study of Mus musculus with 24 samples.

Results

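The genes described are 9 that endothelium uses to start, restrain and reverse clotting: F3, Tfpi, Thbd, Procr, Vwf, F8, Plat, Plau and Plaur. They were chosen by function, with earlier results of these data known. They were found in the deposited tables by mouse symbol after RefSeq transcripts of a gene were summed, and are 9 of 22282 genes. All 9 passed the filter on low values, a mean FPKM (fragments per kilobase of transcript, scaled to the library) of at least 1 over 24 libraries, so none is left out. Amniotic cells that carried Ets factors together with active Akt had more Vwf, Thbd, Procr, Plau and F8 and less F3 than amniotic cells with Akt alone, so that 6 of the 9 genes were called, beside 19.5% of all 14964 genes tested. The calls of Vwf, Thbd and F3 each ended when a single library was left out. The criterion used in the study, a 2-fold change of averaged FPKM at an unadjusted p below 0.05, called 0 of the 9, beside 7.69%. The cells with Akt alone also held macrophage RNA, whose part in these calls was not tested. Liver ECs grown in culture with active Akt had more Procr, Plat, Plau and Plaur and less F8 than liver ECs purified straight from the organ. These were 5 of 9 genes, beside 27% of all genes tested. Culture, Akt and isolation cannot be told apart here. The purified cells also held red cell, macrophage and hepatocyte RNA, whose part in these calls was not tested. Without Akt, 0 of the 9 genes were called between converted and unconverted amniotic cells, beside 2.71% of all genes, a share at which 0 of 9 says little about these genes. The difference of the Akt effects between converted and unconverted cells was also called for 0 of the 9, beside 0.1%. To be called, a gene had to pass an adjusted p of 0.05 (limma, with Benjamini-Hochberg adjustment over all 14964 genes) and a log2 fold change of 1 in either direction. The fold limit was not used for the difference of the Akt effects.

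Clotting in a vessel is started by tissue factor, the product of F3, and is held in check at the endothelial surface by Tfpi, thrombomodulin (Thbd) and the protein C receptor (Procr). ECs also store von Willebrand factor (Vwf), which tethers platelets and carries factor VIII (F8), and they release the plasminogen activators Plat and Plau, of which Plau is bound by its receptor Plaur and which lead to the breakdown of fibrin. Resting endothelium is known for showing little tissue factor, and sinusoidal ECs of the liver are known as a main source of factor VIII.

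RNA was sequenced from 3 libraries in each of 8 groups, all C57BL/6J mice. MACs are cells of the amniotic fluid of embryos at days E11.5 to E13.5, and a replicate was a separately isolated culture of embryos of both sexes. Akt-MACs are MACs that received a lentivirus for myristoylated, constitutively active Akt. RACVECs are MACs given lentiviruses for mouse Etv2, Erg and Fli1, Akt-RACVECs received these factors and Akt, and Sox17-RACVECs are RACVECs that also received mouse Sox17 and were selected with puromycin. Etv2, Erg, Fli1 and Akt were driven by the PGK promoter, and converted cells were kept in EC medium with a TGF-β inhibitor whereas MACs were kept in amniotic medium, so factors and medium cannot be told apart when these groups are compared. Akt-LECs and Akt-liver ECs are lung and liver ECs that were captured with anti-CD31 beads, transduced with the same Akt and sorted again for VEcad and CD31, so every cultured EC group carries Akt. LSECs are liver ECs sorted directly by FACS, without culture or transgene, after labelling in the animal with anti-VEcad and isolectin. The study calls the sequenced samples isolates, but for groups other than MACs the labels do not say what separates the replicates, so p-values measure the spread between these libraries, part of which may be technical.

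Markers of the labelled cells and of other cells were summed per library before the genes were read. The 11 endothelial markers summed to 73.4 to 157 FPKM in MACs and Akt-MACs, to 2739 to 5559 in RACVECs, and to 7286 to 27354.5 in all other groups, so RACVECs carried endothelial RNA at a lower summed level than the remaining converted and EC groups. Several libraries stood apart from their labels. Akt-MACs held macrophage RNA, with 9 of 10 listed markers in the tables and summed levels of 966, 14785.5 and 45294.6 FPKM against at most 14.7 in MACs, although Clec4f was at 0 in all 3. LSECs held red cell RNA at 34826 to 38714 FPKM, macrophage RNA at 15994 to 26263, hepatocyte RNA at 3914 to 20009.7 and platelet markers at 1403 to 1626, of which Clec1b alone made up 1149 to 1458 and the other 8 markers 151 to 266. Akt-LEC 1 and Akt-liver EC 1 had smooth muscle sums of 1772 and 1448.5 FPKM, against 15.6 to 90.2 in the other libraries of their groups. The same 2 libraries had macrophage sums of 1608 and 1252 FPKM, against 0 to 18.6 in the other 4, and epithelial sums of 231 and 1815, against 2.56 to 29.8. In bulk RNA, fewer cells of a type and less RNA per cell cannot be told apart.

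F3 (chr3:121426455-121437970, plus strand, positions in mm9 here and below) encodes tissue factor, the cell-surface starter of clotting. Its FPKM was 195, 91.0 and 173 in MACs and 237, 478 and 597 in Akt-MACs. In the converted cells it was 76.4, 8.49 and 106 in RACVECs, 36.5, 0 and 0 in Akt-RACVECs and 24.6, 0 and 118 in Sox17-RACVECs. All unconverted libraries were high, and the converted groups were divided, with 3 libraries listed at 0, which in a table without counts may also be a failed estimate. Among ECs the FPKM was 157, 4.09 and 2.31 in Akt-LECs, 294, 2.19 and 2.60 in cultured Akt-liver ECs and 1.78, 0 and 5.70 in LSECs. Library 1 of each cultured EC group was as high as MACs, and the other 4 cultured EC libraries were near the level of LSECs.

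F3 was higher in libraries with a higher sum of the 5 smooth muscle markers. The paper reports smooth muscle actin as a non-vascular gene lowered in RACVECs, so this sum does not show a separate cell type. The libraries were divided at a smooth muscle sum between 110 and 215 FPKM, a cut set after seeing the data. F3 was close on its 2 sides, at 5.70 FPKM in LSEC 3 and 8.49 in RACVEC 2. In 14 libraries the 5 smooth muscle markers summed to 215 to 6564 FPKM and F3 lay between 8.49 and 597 FPKM, and in the 10 libraries whose markers summed to 5.81 to 110 FPKM F3 lay between 0 and 5.7 FPKM. The 3 tested genes whose levels followed F3 most closely over the 24 libraries were Tagln and Acta2, which encode smooth muscle cytoskeletal proteins and are 2 of these markers, and Loxl1, an enzyme that crosslinks elastin, with Pearson r of 0.95, 0.94 and 0.91 across libraries that fall into groups. The correlations of Tagln and Acta2 are not separate from the division above, since both genes are in the marker sum. F3 did not overlap between Akt-MACs and 6 of the other 7 groups, the exception being Akt-liver ECs, by their first library. Akt-LEC 1 and Akt-liver EC 1 also held the macrophage and epithelial RNA given above. The part of smooth muscle, macrophage or epithelial RNA in the differences of F3 was not tested.

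**Figure D1:**
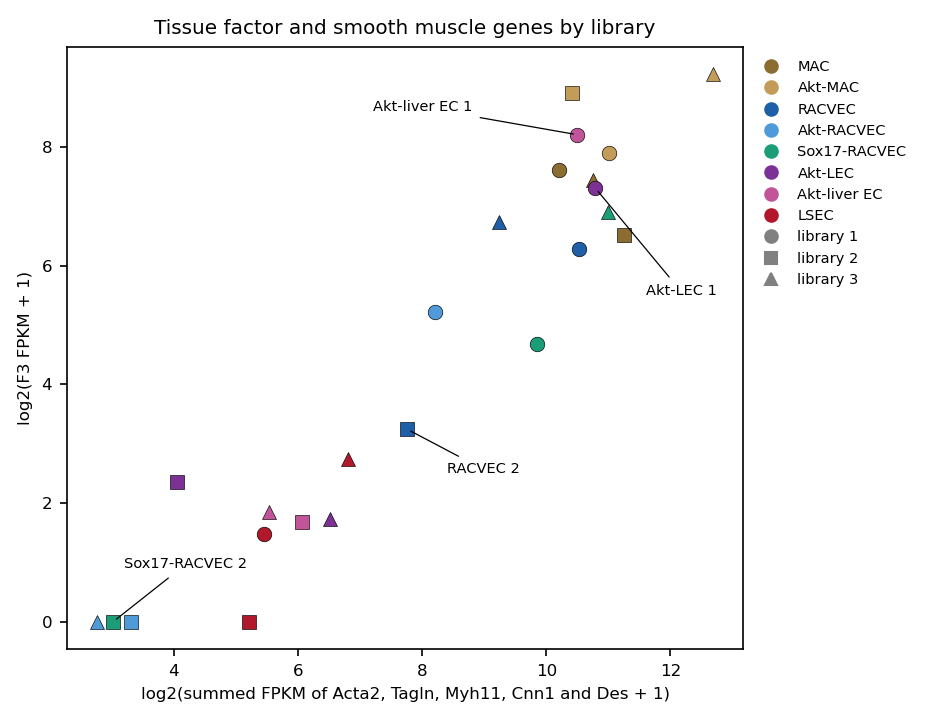
F3 against the summed FPKM of 5 smooth muscle markers, both as log2(value + 1), with 1 point per library, colour for the group and symbol for the library number. Akt-LEC 1 and Akt-liver EC 1 lie beside the MACs at the upper right with F3 at 157 and 294 FPKM, and RACVEC 2 and Sox17-RACVEC 2 lie far below the other libraries of their groups.

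Tfpi (chr2:84273012-84316932, minus strand) encodes the inhibitor that blocks tissue factor with its partner factor VIIa. Its 3 RefSeq transcripts were summed. FPKM was 18.2, 39.2 and 116 in MACs and 169, 60.9 and 388 in Akt-MACs. Converted cells had 67.4, 62.5 and 25.5 in RACVECs, 468, 445 and 376 in Akt-RACVECs and 14.1, 433 and 152 in Sox17-RACVECs. RACVECs overlapped MACs, Akt-RACVECs were close to each other and above every RACVEC library, and the Sox17-RACVEC libraries spread from below MACs to the level of Akt-RACVECs. ECs had 232, 814 and 359 in Akt-LECs, 403, 366 and 326 in cultured Akt-liver ECs and 1762, 1332 and 1976 in LSECs. LSECs were above all libraries of the other 7 groups. Gimap9, an immunity-associated GTPase, and Mef2c, a transcription factor of muscle and endothelium, were among the 3 genes most like Tfpi over 24 libraries (r of 0.89 and 0.87, with 6430548M08Rik at 0.88).

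Thbd (chr2:148230207-148233924, minus strand) encodes thrombomodulin, which turns thrombin from a clotting enzyme into an activator of protein C. FPKM was 602, 312 and 352 in MACs and 541, 57.3 and 119 in Akt-MACs. It was 796, 686 and 1473 in RACVECs, 1579.7, 404 and 2277 in Akt-RACVECs and 641, 1539 and 848 in Sox17-RACVECs. Every RACVEC and Sox17-RACVEC library was above every MAC library, whereas Akt-RACVEC 2 fell within the range of MACs. FPKM was 1109.8, 1025 and 822 in Akt-LECs, 572, 133 and 163 in cultured Akt-liver ECs and 211, 298 and 404 in LSECs. Thbd was therefore present at 57.3 FPKM or more in all 24 libraries, amniotic cells included, and Akt-LECs did not overlap either liver group.

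Procr (chr2:155576853-155581207, plus strand) encodes the receptor that presents protein C to thrombin and thrombomodulin. MACs had an FPKM of 109, 60.9 and 108 and Akt-MACs 112, 56.0 and 162. RACVECs had 179, 301 and 356, Akt-RACVECs 2622, 1536 and 8321 and Sox17-RACVECs 1216, 4102 and 406. The order from MACs to RACVECs to both further groups held for every library. Akt-LECs had 698, 1631 and 5411, Akt-liver ECs 1651, 1058 and 499 and LSECs 41.2, 34.0 and 43.5. All cultured EC libraries were above RACVECs, and LSECs were below every other library of the series. Ehd4, which acts in endosomal traffic, followed Procr most closely (r = 0.90 over 24 libraries).

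Vwf (chr6:125496792-125636697, plus strand) encodes von Willebrand factor, which is stored in the Weibel-Palade bodies of ECs and also made by megakaryocytes. FPKM was 0, 0.38 and 0.59 in MACs and 0.19, 1.20 and 1.61 in Akt-MACs. It was 0.28, 3.17 and 0.30 in RACVECs, 8.51, 4.43 and 2120.5 in Akt-RACVECs and 0.73, 73.0 and 0.50 in Sox17-RACVECs. In Akt-RACVECs and in Sox17-RACVECs 1 library of 3 stood far above the other 2, and the other Sox17-RACVEC libraries were within the range of RACVECs. FPKM was 24.7, 89.8 and 115 in Akt-LECs, 1.19, 0.26 and 0.53 in cultured Akt-liver ECs and 23.8, 23.2 and 45.2 in LSECs. Cultured lung ECs and directly purified liver ECs thus had Vwf in every library, and cultured liver ECs were at the level of amniotic cells. Platelet markers, which other cells with Vwf share, summed to 567, 40.8 and 657 FPKM in the 3 Akt-LEC libraries, to 18.2 to 229 in Akt-liver ECs and to 222 FPKM in Akt-RACVEC 3, where Gp6 was at 0 in each, and to 151 to 266 in LSECs without Clec1b. Their part in Vwf was not tested.

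F8 (chrX:72418054-72627954, minus strand) encodes factor VIII, the cofactor that is missing in haemophilia A and travels in blood bound to von Willebrand factor. Its 3 RefSeq transcripts were summed, and the most abundant held 71.0 to 77.2% of the sum in LSECs. FPKM was 5.26, 3.92 and 2.23 in MACs, 2.04, 5.31 and 1.97 in Akt-MACs and 3.33, 2.44 and 8.97 in RACVECs. Akt-RACVECs had 110.4, 43.2 and 49.8 and Sox17-RACVECs 19.7, 80.0 and 4.77. The amniotic groups and RACVECs were low and overlapped, and all Akt-RACVEC libraries were above them in the summed level. The transcript most abundant in LSECs had 8.05 FPKM in Akt-RACVEC 2, below RACVEC 3 at 8.38. Another transcript held 20.67 of the 43.2 FPKM of Akt-RACVEC 2. The remaining transcript had 27.43, 14.49 and 7.11 FPKM in Akt-RACVECs and 1.41, 0.08 and 0.18 in RACVECs, without overlap. Akt-LECs had 3.98, 40.8 and 115, Akt-liver ECs 54.5, 192 and 211 and LSECs 2361, 1433 and 1936. LSECs were above all libraries of the other 7 groups. Gimap3, a GTPase like Gimap9, and Gpihbp1, which holds lipoprotein lipase on capillary ECs, were the genes most like F8 over 24 libraries (r of 0.94 and 0.92), followed by Smim9 (r = 0.91).

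Plat (chr8:23868216-23893319, plus strand) encodes tissue plasminogen activator, which acts on plasminogen bound to fibrin. FPKM was 193, 341 and 697 in MACs and 244, 124 and 87.0 in Akt-MACs. It was 219.7, 25.1 and 96.8 in RACVECs, 50.0, 267 and 32.3 in Akt-RACVECs and 143, 30.9 and 20.7 in Sox17-RACVECs. All 5 amniotic and converted groups were present at 20.7 to 697 FPKM and neighbours in the order overlapped. FPKM was 184, 2904 and 93.5 in Akt-LECs, 129.5, 500.0 and 1498 in cultured Akt-liver ECs and 10.2, 4.97 and 9.13 in LSECs. LSECs were below every other library, and both cultured EC groups spread more widely than the other groups.

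Plau (chr14:21655884-21662610, plus strand) encodes urokinase, the plasminogen activator that works at the cell surface. MACs had an FPKM of 243, 728 and 348 and Akt-MACs 234, 122 and 145. Converted cells had 802, 480.3 and 1635 in RACVECs, 2202, 3845 and 1201 in Akt-RACVECs and 878, 1944 and 752 in Sox17-RACVECs. All Akt-RACVEC libraries were above all MACs and Akt-MACs, and RACVECs overlapped MACs through RACVEC 2 and MAC 2. Akt-LECs had 1680.0, 985 and 2295, Akt-liver ECs 1638, 4513 and 1905 and LSECs 249, 216 and 221. The 6 cultured EC libraries were all higher than the 3 of LSECs, which lay close together. Plaur (chr7:25247519-25260892, plus strand) encodes the receptor that holds urokinase on the membrane. Its FPKM was 166, 62.3 and 221 in MACs, 176, 50.2 and 229 in Akt-MACs and 64.2, 65.8 and 58.4 in LSECs. RACVECs had 380.2, 535 and 790.3, Akt-RACVECs 501, 1223 and 85.9 and Sox17-RACVECs 557, 321 and 936. RACVECs and Sox17-RACVECs were above all MACs, and Akt-RACVEC 3 was not. Akt-LECs had 526, 508 and 379 and Akt-liver ECs 664, 1419.8 and 1332, without overlap between these groups.

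**Figure D2:**
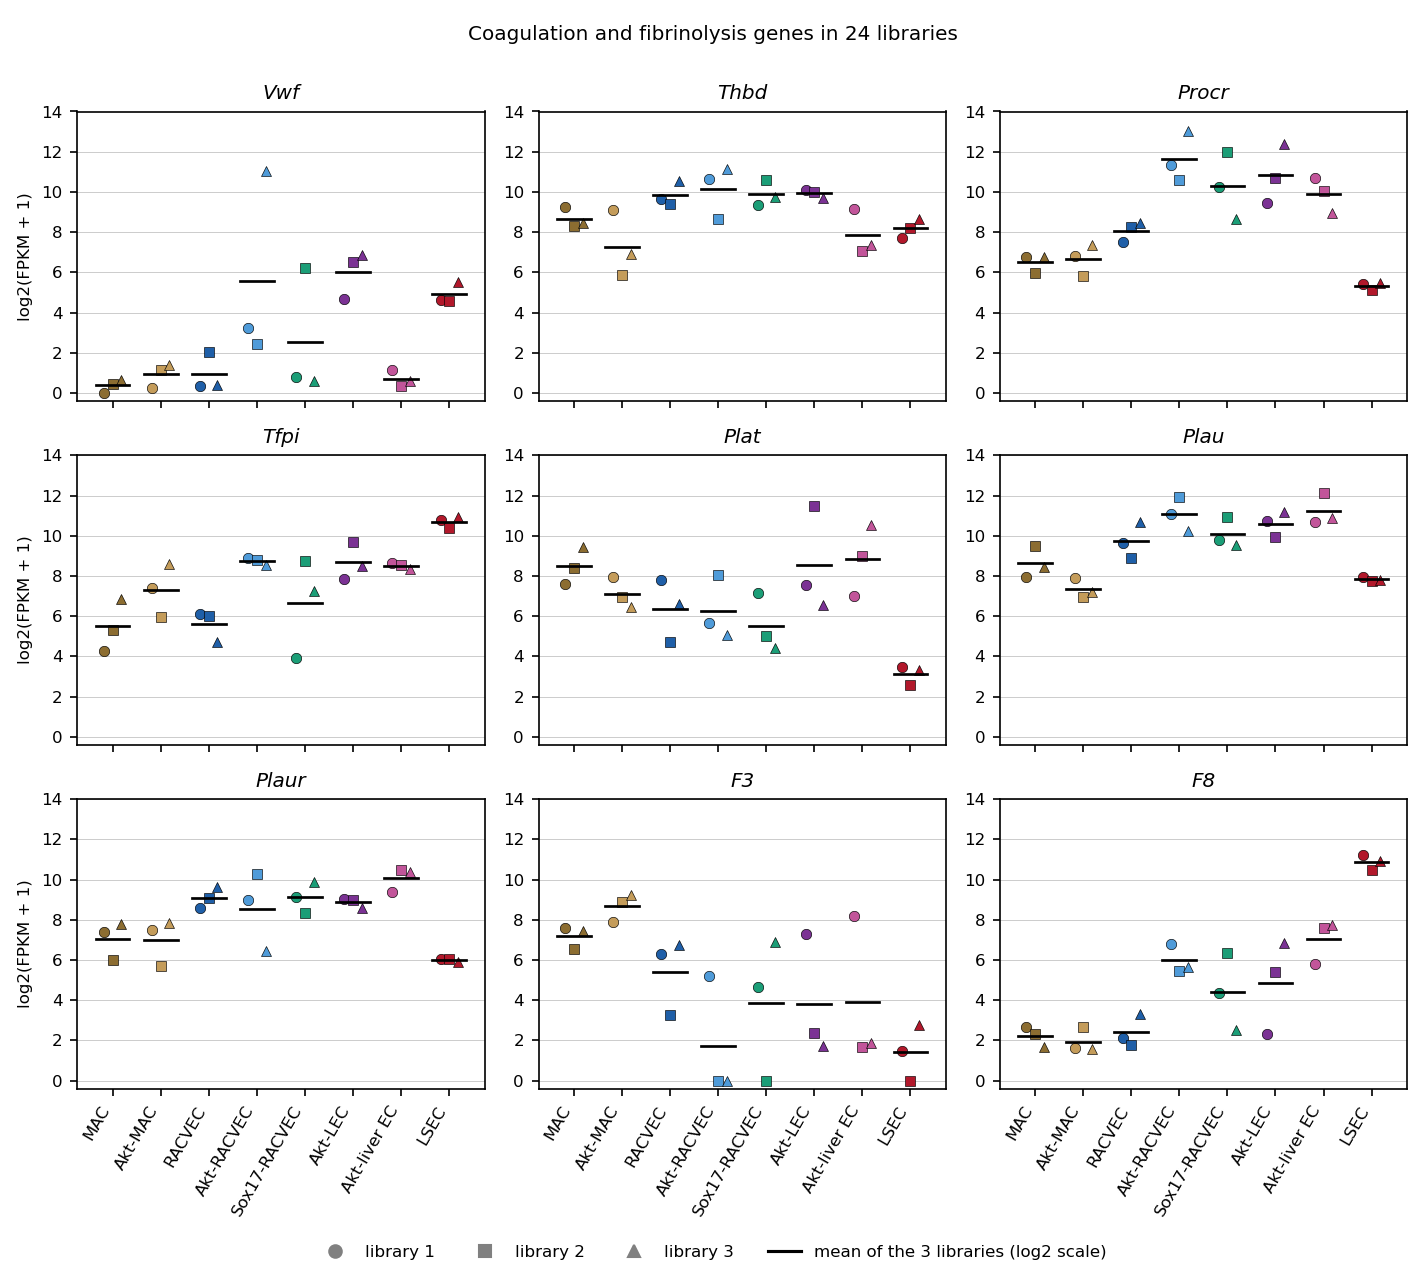
Level of each of the 9 genes in every library as log2(FPKM + 1), with 1 point per library, a symbol for the library number and a bar for the mean of the 3 libraries on the log2 scale. F8 and Tfpi were highest in LSECs, above every other library, while Procr and Plat were lowest there, and Vwf in Akt-RACVECs rests on library 3 at 2120.5 FPKM.

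With groups ordered by mean log2(FPKM + 1), 55 of the 63 pairs of neighbours overlapped. Neighbours are by construction the groups of closest means, so this overlap is not a test and does not show that they were alike. The share over all genes was not computed. Vwf was highest in Akt-LECs, Thbd and Procr in Akt-RACVECs, F3 in Akt-MACs, Tfpi and F8 in LSECs, and Plat, Plau and Plaur in Akt-liver ECs. On the per-length FPKM scale, Thbd, Procr and Plau were the most abundant of the genes in Akt-RACVECs, with means of 1420.4 ± 947 (SD, n = 3), 4159.7 ± 3644 and 2416 ± 1335, whereas F8 and Tfpi led in LSECs with 1910.1 ± 465 and 1689.9 ± 328.

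Etv2, Erg and Fli1 belong to the Ets family, whose binding sites share the core GGAA. Of the 9 members, 5 have a promoter window in the RefSeq table (GRCm38.p6), and the stretch before the annotated start is shown. Windows with too short a stretch were left out, which leaves those of 3 members. Of these, Procr was called higher and F3 lower in Akt-RACVECs than in Akt-MACs, and Tfpi was not called. Coordinates are of GRCm38.p6, and GGAA on either strand is in capitals.
Tfpi (chr2:84476776-84477009, minus strand): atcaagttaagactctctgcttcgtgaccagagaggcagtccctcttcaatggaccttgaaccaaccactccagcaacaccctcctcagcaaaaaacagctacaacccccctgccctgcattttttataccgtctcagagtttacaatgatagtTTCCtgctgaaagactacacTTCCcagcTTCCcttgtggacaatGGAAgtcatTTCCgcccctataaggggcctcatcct
Procr (chr2:155750967-155751124, plus strand): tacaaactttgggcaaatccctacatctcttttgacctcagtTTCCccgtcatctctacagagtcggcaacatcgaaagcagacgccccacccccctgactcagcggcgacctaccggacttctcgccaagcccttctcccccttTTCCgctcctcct
F3 (chr3:121723287-121723536, plus strand): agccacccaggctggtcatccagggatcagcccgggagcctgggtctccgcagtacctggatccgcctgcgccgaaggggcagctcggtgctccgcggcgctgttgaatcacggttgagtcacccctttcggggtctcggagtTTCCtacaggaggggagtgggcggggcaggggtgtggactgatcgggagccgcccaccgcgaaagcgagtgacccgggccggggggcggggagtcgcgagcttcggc
The window of Tfpi holds 5 matches, that of Procr 2 and that of F3 1. Such short letters are common, and 92.2%, 83.2% and 93.4% of the 32851 windows of the table hold at least 1 match over the same lengths of 234, 158 and 250 bases. The core letters of Sox sites, ACAAT on either strand, matched in the window of Tfpi at 2 places, beside 26.7% of windows, and in those of Procr and F3 at 0, beside 19.4% and 27.7%. A match is a description of the letters and not a site.

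Conversion by the Ets factors in the absence of Akt was asked by setting RACVECs against MACs. limma called 0 of 9 genes, 1 (Plaur) passed the fold at an unadjusted p below 0.05 (beside 12.6% of all genes), and the criterion used in the study (a 2-fold change of averaged FPKM at an unadjusted p below 0.05) called 0 of 9, beside 2.81% of all genes. Thbd, Procr and Plaur were higher in all 3 RACVEC libraries than in any MAC, 3 of 9 genes beside 11.4% of all genes. Their log2 fold changes were 1.20 ± 0.72 (SE), 1.57 ± 0.78 and 2.04 ± 0.73, with limma adjusted p of 0.369, 0.278 and 0.134. Plat had -2.12 ± 1.16 (SE), with overlapping libraries. Among the other genes of the pathway, 1 of 11 surface anticoagulants and inhibitors rose, Entpd1, which removes the platelet agonist ADP, by 5.76 ± 0.58 (SE) on the log2 scale (limma adjusted p = 1.49e-05), from 3.30, 2.84 and 1.22 FPKM in MACs to 67.6, 256 and 330.0 in RACVECs. Of 11 tested Weibel-Palade and Vwf partners, 1 rose, Selp, the P-selectin stored with von Willebrand factor, by 6.70 ± 1.03 (SE, limma adjusted p = 0.00113). The 13 plasminogen system partners, 4 thrombin and protease receptors, 5 secretion enzymes and 17 tested liver-made factors had 0 calls. The median log2 fold change was 0.55 for the 9 genes and close to 0 for all genes.

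With Akt in both arms, Akt-RACVECs against Akt-MACs, 5 of 9 genes rose (beside 6.15% of all genes) and 1 fell (beside 13.4%). Procr rose by 4.99 ± 0.78 (SE, limma adjusted p = 0.000398), Plau by 3.75 ± 0.54 (SE, limma adjusted p = 0.000196), and F8 by 4.03 ± 0.94 (SE, limma adjusted p = 0.00595). The libraries of these 3 genes and of Vwf did not overlap between the groups, 4 of 9 genes beside 15.3% of all genes. Thbd rose by 2.86 ± 0.72 (SE, limma adjusted p = 0.00877), with Akt-MAC 1 inside the range of Akt-RACVECs, and the call ended without Akt-MAC 2. Vwf rose by 4.66 ± 1.62 (SE, limma adjusted p = 0.0445), and this call ended without any 1 of the 3 Akt-MAC libraries or without Akt-RACVEC 3, whose removal left a log2 fold change of 1.92. It also ended with a pseudocount of 10 (limma adjusted p = 0.0945) and with no filter on low values (limma adjusted p = 0.0511). F3 fell by 6.93 ± 1.92 (SE, limma adjusted p = 0.0153) on the log2 scale without overlap (beside 22% of all genes in that direction), and this call ended without Akt-MAC 2, Akt-RACVEC 2 or Akt-RACVEC 3. Tfpi, Plaur and Plat were not called, with 1.42, 1.56 and -0.85, and 7 of 9 genes passed at an unadjusted p below 0.05 (beside 26.4% of all genes), Plaur being the seventh. Plaur was called without Akt-RACVEC 3 (log2 fold change 2.62, limma adjusted p = 0.00926).

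Markers of other cells moved with these calls. Macrophage markers fell in 7 of 9 tested between the groups, and smooth muscle markers in 3 of 5, with smooth muscle sums of 1370 to 6564 FPKM in Akt-MACs and 5.81 to 295 in Akt-RACVECs. With Akt-MAC 2 and 3 left out, which hold the most macrophage RNA, an alternative chosen after seeing the data, 2 of the 9 genes were called (beside 6.32% of all genes, from 19.5%), Procr (log2 fold change 4.83, limma adjusted p = 0.0182) and Plau (3.21, limma adjusted p = 0.0233). Among the calls that ended, Vwf had 5.33, F8 4.37, F3 -6.15 and Thbd 1.07. That fit assumes that the lone Akt-MAC library varies like the other groups. A fit of only these 2 groups called 3 of the 9 genes (Procr, Plau and F8), beside 6.77% of all genes, and the criterion used in the study called 0, beside 7.69%. The part of other cells in the remaining calls was not tested.

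Partners in the pathway moved in this comparison as well. Of 13 plasminogen system partners 4 fell and 0 rose: Serpine2, an inhibitor of urokinase and thrombin, with a log2 fold change of -5.78, Pdpn, a platelet-activating glycoprotein, with -5.70, Lrp1, which clears protease complexes, with -4.80, and Plgrkt, a plasminogen receptor, with -1.29 (limma adjusted p from 0.00628 to 0.049). Anxa2, which holds Plat and plasminogen at the surface, had a log2 fold change of -0.24, and F2r, the thrombin receptor PAR1, of -1.62, neither called. F2rl3, the thrombin receptor PAR4, rose by 7.24 ± 1.21 (SE, limma adjusted p = 0.000677) as the only one of 4 receptors. Entpd1 rose by 4.44 and Nos3, which makes platelet-inhibiting nitric oxide, by 7.14 among 11 surface anticoagulants, and Selp rose by 5.47 and Mmrn2, an endothelial matrix protein, by 6.78 among 11 tested Weibel-Palade and Vwf partners. Medians of log2 fold changes were 2.86 for the 9 genes, -1.29 for the plasminogen partners and -0.09 for all genes.

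**Figure D3:**
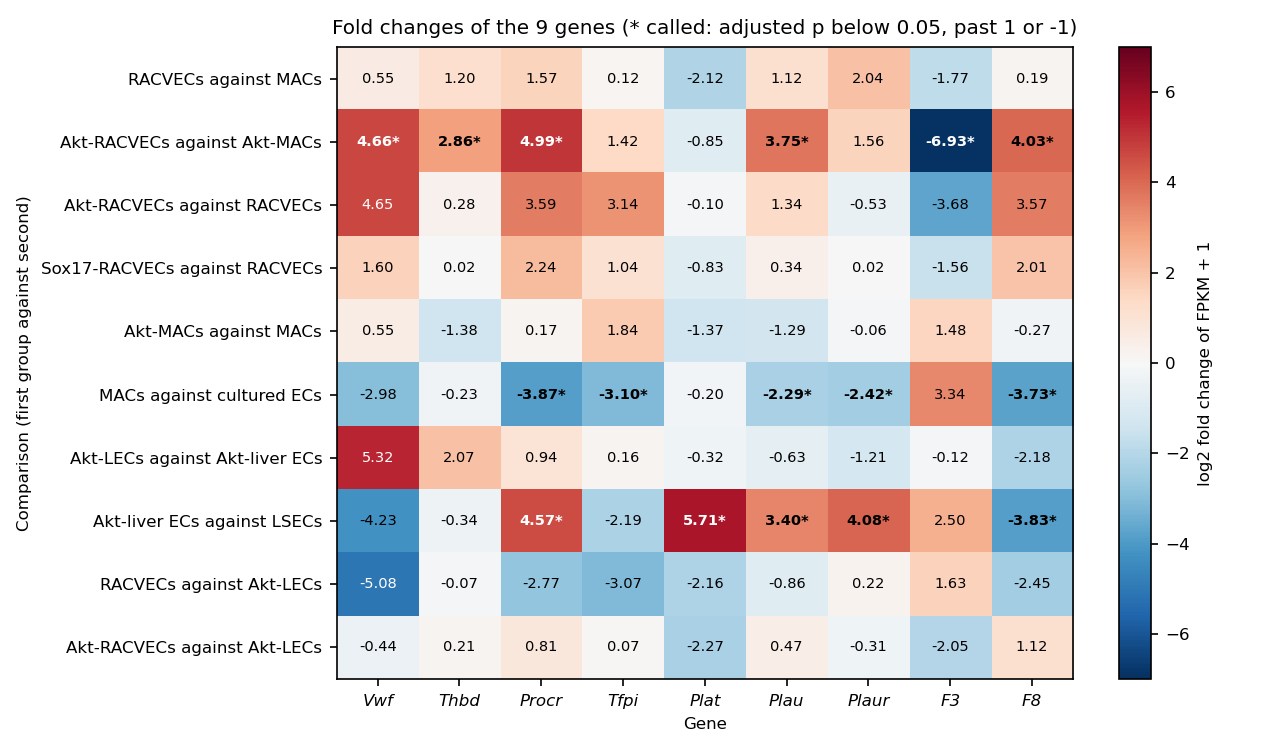
Fitted log2 fold change of FPKM + 1 for the 9 genes (columns) in 10 comparisons (rows), coloured from blue (lower in the first group) to red (higher), with a star and bold print for called values. Calls stand in 3 of the 10 rows: 6 for Akt-RACVECs against Akt-MACs, 5 for MACs against cultured ECs and 5 for Akt-liver ECs against LSECs.

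Addition of Akt to converted cells was followed by setting Akt-RACVECs against RACVECs, which share the RACVEC libraries with the comparisons before and after. limma called 0 of 9 genes beside 0.261% of all genes, and 5 passed at an unadjusted p below 0.05, beside 10% of all genes. Procr had a log2 fold change of 3.59 ± 0.78 (SE, limma adjusted p = 0.055), F8 of 3.57 ± 0.94 (SE, limma adjusted p = 0.0811), Tfpi of 3.14 ± 0.90 (SE, limma adjusted p = 0.106) and Vwf of 4.65 ± 1.62 (SE, limma adjusted p = 0.171). In these 4 genes every Akt-RACVEC library was above every RACVEC library, beside 10.6% of all genes. For F8 this held for the summed level and not for the transcript most abundant in LSECs. Plau, with 1.34 ± 0.54 (SE), was the fifth. Procr was called with a pseudocount of 10 (limma adjusted p = 0.044), a mean FPKM of at least 10 (0.0469) or the replicate number as a block (0.0468), and Tfpi by the criterion used in the study, 1 of 9 genes beside 3.43% of all genes. The sums of endothelial markers were 2739 to 5559 FPKM in RACVECs and 14863 to 23490 in Akt-RACVECs, with 2 of 11 markers called higher, and their part in these differences was not tested. None of the 61 other pathway genes tested was called here (0 of 61, limma).

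Sox17 in converted cells gave 0 calls among the 9 genes (limma) in Sox17-RACVECs against RACVECs, beside 0.00668% of all genes, and 2 genes passed at an unadjusted p below 0.05, beside 4.7%. These were Procr, with a log2 fold change of 2.24 ± 0.78 (SE, limma adjusted p = 0.565), and F8, with 2.01 ± 0.94 (SE, limma adjusted p = 0.743). Procr alone did not overlap, beside 4.05% of all genes. Sox17-RACVEC 2 was the highest of its group in Vwf, Thbd, Procr, Tfpi, Plau and F8, was listed at 0 in F3, and had an endothelial sum of 19026 FPKM and a smooth muscle sum of 7.12, against 7286 and 8416 and against 921 and 2049 in the other 2. Without it, the log2 fold changes of Vwf, Tfpi and F3 changed sign, from 1.60 to -0.24, from 1.04 to -0.013 and from -1.56 to 0.37. The partner lists held 0 calls, and Nos3 showed the same library, at 0, 819 and 0.58 FPKM.

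In unconverted cells Akt-MACs against MACs gave 0 calls among the 9 genes (limma), beside 2.81% of all genes. Plau passed at an unadjusted p below 0.05 (beside 9.72% of all genes), was lower in every Akt-MAC than in any MAC (beside 4.19% of all genes), and had a log2 fold change of -1.29 ± 0.54 (SE, limma adjusted p = 0.266). F3 was higher in every Akt-MAC than in any MAC (beside 10.7%), with 1.48 ± 1.92 (SE). Entpd1 rose by 3.26 ± 0.58 (SE, limma adjusted p = 0.00667), the only pathway gene called, while 7 of 9 macrophage markers tested rose too, and their part in the rise of Entpd1 was not tested. The difference of the Akt effects between converted and unconverted cells, an interaction term, was called for 0 of 9 genes (limma) beside 0.1% of all genes, and 3 passed at an unadjusted p below 0.05 (beside 12.1%): Plau with 2.63 ± 0.77 (SE, limma adjusted p = 0.151), Procr with 3.42 ± 1.11 (0.201) and F8 with 3.84 ± 1.33 (0.234). Over all genes the median of this term was -0.12.

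The difference between starting cells and endothelium was read from MACs against the averaged cultured ECs of lung and liver. Of the 9 genes 5 were called, beside 14.8% of all genes. All 5 were lower in MACs, beside 7.3%, and 0 were higher, beside 7.51%: Procr with -3.87 ± 0.68 (SE, limma adjusted p = 0.00093), F8 with -3.73 ± 0.82 (SE, limma adjusted p = 0.00441), Tfpi with -3.10 ± 0.78 (SE, limma adjusted p = 0.0104), Plaur with -2.42 ± 0.63 (SE, limma adjusted p = 0.013) and Plau with -2.29 ± 0.47 (SE, limma adjusted p = 0.00278). Vwf, which passed with these 5 at an unadjusted p below 0.05 (6 of 9, beside 21.5%), had -2.98 and F3 3.34, neither called, and Thbd and Plat had -0.23 and -0.20. The call of Tfpi ended without MAC 1 (limma adjusted p = 0.0769) and that of Plaur without MAC 2 (0.0753). With Akt-LEC 1 and Akt-liver EC 1 left out, chosen after seeing the data, F3 was called higher in MACs (log2 fold change 5.29, limma adjusted p = 0.0152) together with the same 5 genes, 6 of 9 beside 16.3% of all genes, as it was without Akt-liver EC 1 alone (4.42, limma adjusted p = 0.0497). Partners lower in MACs were Tfpi2, Entpd1 and Nos3 of 11 surface anticoagulants, with log2 fold changes of -5.97, -5.69 and -6.76, Mmrn1, Mmrn2, Selp and Angpt2 of 11 Weibel-Palade and Vwf partners (from -9.13 to -4.22), F2rl3 (-4.56) of the receptors and Lrp8 (-1.45) of the plasminogen partners, and Lrp1 alone was higher in MACs (4.24).

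Converted cells were set beside lung ECs as the endothelial reference. RACVECs against Akt-LECs had 0 of 9 genes called (limma), beside 0.261% of all genes, with 4 at an unadjusted p below 0.05, beside 7.79%. Vwf, Procr and Tfpi were lower in every RACVEC library than in any Akt-LEC (beside 7.68% of all genes), with log2 fold changes of -5.08 ± 1.62 (SE), -2.77 ± 0.78 and -3.07 ± 0.90. F8, the fourth, had -2.45 ± 0.94 (SE) and was called with Akt-LEC 1 and Akt-liver EC 1 both left out of the fit (-3.72, limma adjusted p = 0.0422), as 1 of 9 genes beside 0.902% of all genes. Akt-RACVECs against Akt-LECs had 0 of 9 genes called, beside 0.00668%, 0 at an unadjusted p below 0.05, beside 4.16%, and 0 without overlap, beside 6.87% of all genes higher and 5.08% lower, and the 9 fitted values lay between -2.27 (Plat) and 1.12 (F8). With standard errors of 0.54 to 1.92, these values do not show that the groups were alike. Pathway partners had 0 calls in both comparisons.

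Lung and liver ECs in the same culture with Akt were compared as Akt-LECs against Akt-liver ECs. limma called 0 of 9 genes, beside 0.0134% of all genes, while 3 passed at an unadjusted p below 0.05, beside 2.79%. Vwf had a log2 fold change of 5.32 ± 1.62 (SE) and Thbd of 2.07 ± 0.72, both without overlap (beside 2.75% of all genes), and F8 had -2.18 ± 0.94, each with a limma adjusted p of 1. Plaur was lower in every Akt-LEC than in any Akt-liver EC (beside 4.41%), with -1.21 ± 0.73 (SE). Thbd was called by the criterion used in the study, which is not adjusted, as 1 of 9 genes beside 0.548% of all genes. Platelet markers, summed above, were at 40.8 to 657 FPKM in Akt-LECs, while Akt-liver ECs had 18.2 to 229, and their part in this difference was not tested.

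Cultured and directly purified liver ECs were compared as Akt-liver ECs against LSECs. Akt was present in the cultured arm only, and the arms were isolated with different labels, as given above. Culture, Akt and isolation therefore cannot be told apart, and rose and fell here compare the arms, not the same cells. Both plasminogen activators and the urokinase receptor were higher in Akt-liver ECs: Plat by 5.71 ± 1.16 (SE, limma adjusted p = 0.000992), Plaur by 4.08 ± 0.73 (SE, limma adjusted p = 0.000328) and Plau by 3.40 ± 0.54 (SE, limma adjusted p = 0.000104). Procr rose by 4.57 ± 0.78 (SE, limma adjusted p = 0.000213). These are 4 of 9 genes higher, beside 14.1% of all genes, and F8 fell by 3.83 ± 0.94 (SE, limma adjusted p = 0.00422) on the log2 scale as 1 of 9 lower, beside 12.9%. All 5 were without overlap, and so were Vwf (-4.23 ± 1.62, limma adjusted p = 0.0511) and Tfpi (-2.19 ± 0.90, limma adjusted p = 0.0676), both lower in culture, which makes 4 of 9 without overlap higher, beside 27.7% of all genes, and 3 of 9 lower, beside 24.9%. These 2 genes and the 5 called passed at an unadjusted p below 0.05, 7 of 9 beside 31.2%. Averaged over libraries, F8 was 12.5 times and Tfpi 4.63 times as high in LSECs as in Akt-liver ECs, and Plat 87.4 times and Procr 27.0 times as high in Akt-liver ECs as in LSECs. Leaving out any 1 library of both groups kept 5 calls. By the criterion used in the study the calls of Plat, Plau and Procr ended, while Plaur and F8 stayed and Tfpi was added, 3 of 9 genes beside 18.1% of all genes.

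RNA of other cells was present in the LSEC libraries and moved with this comparison. All 10 hepatocyte markers, 9 tested macrophage markers, 5 tested red cell markers and 4 of 8 tested platelet markers were lower in culture, and 16 of 17 tested liver-made plasma factors fell, led by the fibrinogen chains Fgg, Fgb and Fga and by kininogen Kng1, with log2 fold changes of -7.38, -6.09, -5.79 and -5.75. Sinusoidal markers summed to 43429 to 54513 FPKM in LSECs and to 3737 to 11227 in Akt-liver ECs, and 5 of 7 were called lower in culture. The part of hepatocyte, macrophage and platelet RNA in the differences of the 9 genes was not tested.

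Partners of the plasminogen activators were called in both directions. Of 13 plasminogen system partners 5 rose and 5 fell in Akt-liver ECs. Serpine2 rose by 7.05 ± 1.84 (SE, limma adjusted p = 0.00643), from 1.42, 1.32 and 1.93 FPKM in LSECs to 107, 448 and 786, without overlap. Pdpn rose by 8.18 and Anxa2 by 1.72, and Vtn, an adhesive plasma protein made by hepatocytes, and Hgf, a growth factor activated by proteases, fell, with -6.40 and -6.30. F2rl1, the trypsin receptor PAR2, and F2rl3 rose by 4.71 and 3.35, while F2r was not called (-2.45, limma adjusted p = 0.0813). Of 11 surface anticoagulants 1 rose, Ext1, which builds heparan sulphate, by 1.73, and Entpd1 had 0.22 without a call. Of the partners of Vwf, 4 rose and 1 fell of 11 tested, with Mmrn1, a carrier of factor V, at 8.12, Selp at 5.60, Angpt2, a vessel-destabilising ligand stored with von Willebrand factor, at 5.31 and Cd63, a membrane protein of the storage granule, at 4.55, in libraries where Vwf itself lay between 0.26 and 1.19 FPKM. Of the 5 secretion and vitamin K enzymes, Furin, which cleaves the von Willebrand factor propeptide, rose by 2.11 and Mcfd2, which carries factors V and VIII out of the endoplasmic reticulum, fell by 1.35.

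**Figure D4:**
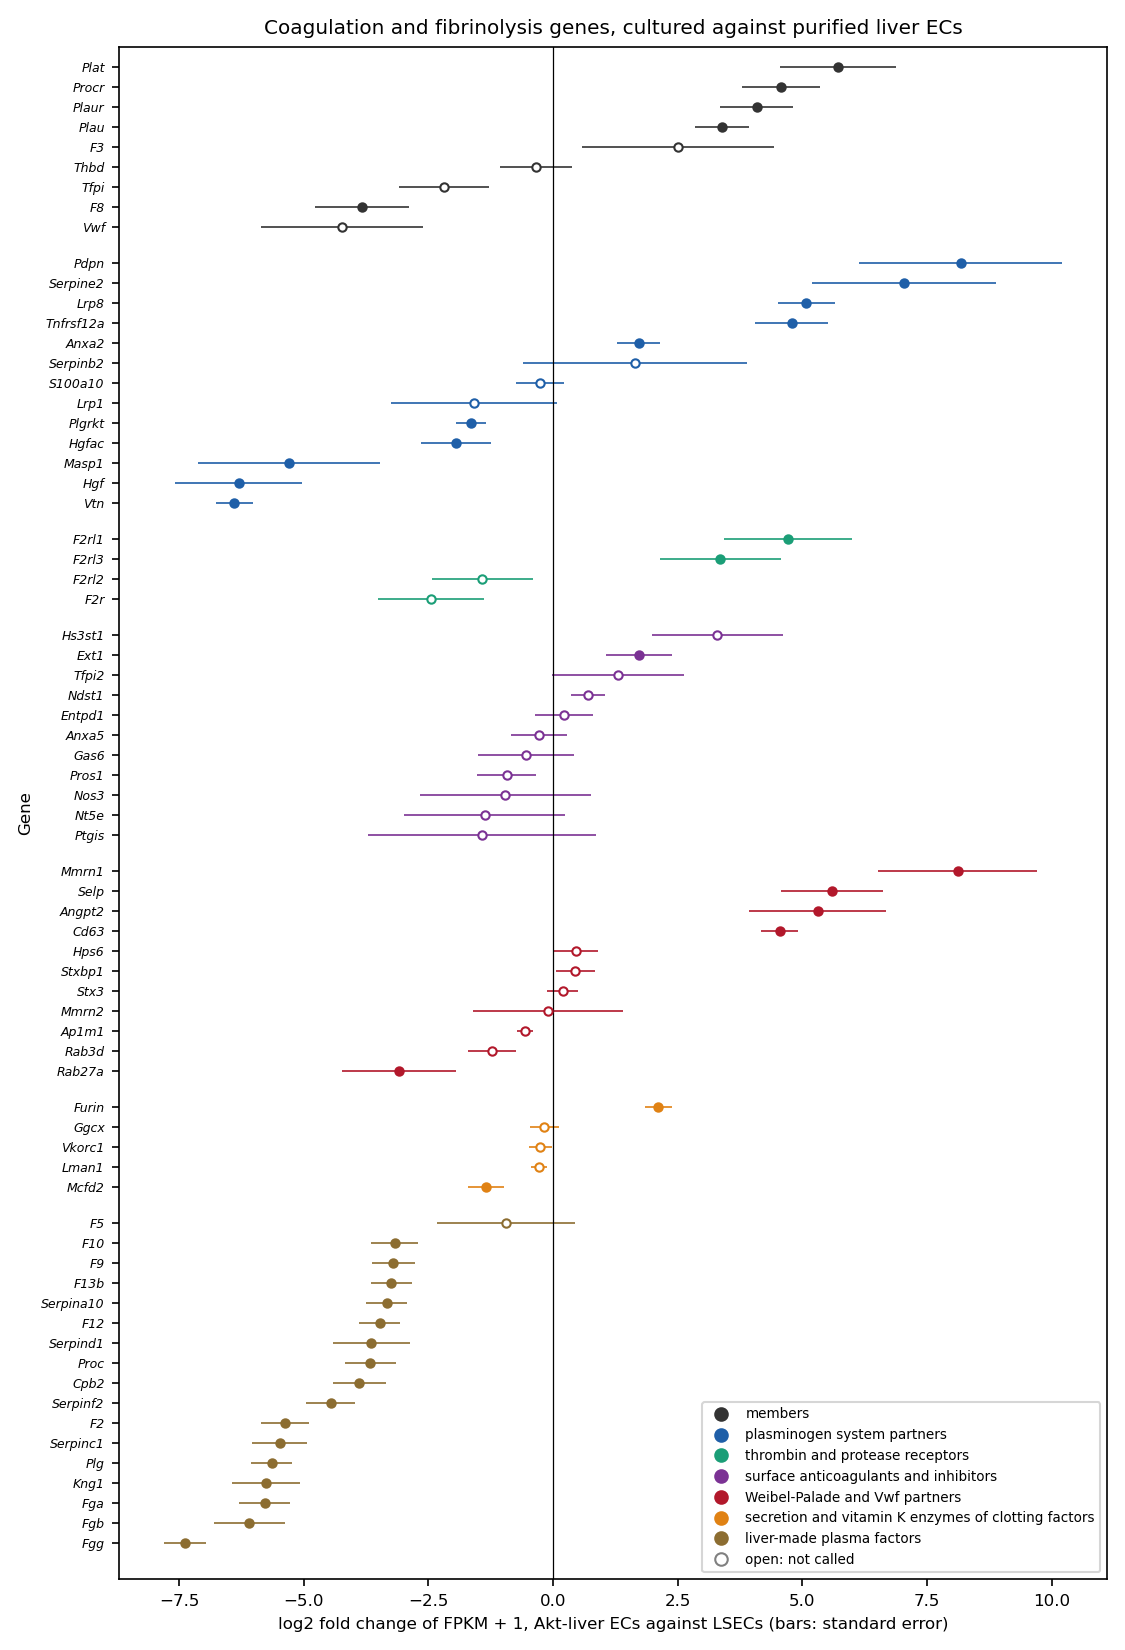
Fitted log2 fold change of FPKM + 1 (points) with its standard error (bars) for the 9 genes and the tested genes of 6 lists in Akt-liver ECs against LSECs, filled where called. The plasminogen activators Plat and Plau, Plaur and the inhibitor Serpine2 lie to the right, and F8 and the 17 liver-made factors, 16 of them called, lie to the left.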

How the data were processed

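Paired reads of 51 bp were mapped by the authors with TopHat to mm9, and the authors deposited FPKM from Cufflinks, with upper-quartile normalization and bias correction, as 1 value per RefSeq transcript. Versions of these tools are not given in the sources used here. Read numbers are not given either, so the depth is unknown and no counting error can be stated. Each library lists 27583 transcripts, of which 26930 were joined to a symbol and summed per gene, giving 22282 genes. Summed FPKM per library lay between 1689486 and 2317294. No pair of libraries held identical values (0 of 276). Gene positions are those of GENCODE M1 on mm9.

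The 8 groups entered 1 two-sided limma fit (version 3.58.1, R 4.3.3) on log2(FPKM + 1), with a trend on the mean and Benjamini-Hochberg adjustment over the 14964 genes whose FPKM averaged at least 1. Fold changes are on this scale, which understates changes of low genes. The thresholds of a call were 0.05 for adjusted p and 1 for the size of the log2 fold change, the latter not used for the interaction. Python 3.11.15 with numpy 2.4.6, pandas 2.3.3 and matplotlib 3.10.9 was used for levels and plots. On simulated data for RACVECs against MACs with 200 of 14964 genes changed by 3 on the log2 scale, 87% were called, with 7 unchanged genes, and none of the changed genes was of low FPKM.

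Named are the 9 genes and, from 6 lists of pathway genes, at most the 4 called genes of largest change per list and comparison together with Serpine2, F2r, Anxa2 and Entpd1. Another gene of these lists is not reported here. Genes most like a member are those of highest Pearson correlation, and marker lists were summed as FPKM, without 1 macrophage marker that no symbol matched. The members and all lists were chosen with earlier results of these data known. Alternatives were pseudocounts of 0.1 and 10, no filter, a mean FPKM of at least 10, only the groups compared, the replicate number as a block, rescaled libraries, the criterion used in the study and each library left out, and 2 sets of libraries left out together were added after seeing the data.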

Additional observations from a re-analysis of the deposited data

How the results depend on the processing

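Counts of the 9 genes called moved in some settings. For Akt-RACVECs against Akt-MACs, 6 calls became 3 with only the groups compared, 0 by the criterion used in the study and 2 without Akt-MAC 2 and 3, and lay between 3 and 6 when 1 library was left out. For Akt-RACVECs against RACVECs, 0 calls became 1 with a pseudocount of 10, with a mean FPKM of at least 10, with the replicate number as a block, and by the criterion used in the study. That criterion gave 1 call for Akt-LECs against Akt-liver ECs and 3 in place of 5 for Akt-liver ECs against LSECs, where it ended those of Plat, Plau and Procr and added Tfpi. RACVECs against Akt-LECs gave 1 call in place of 0 without Akt-LEC 1 and Akt-liver EC 1. For MACs against cultured ECs leaving out 1 library gave 4 to 6 calls. Of 170 values under alternatives, 159 stayed within 1.5 times the reported value. Most comparisons had a reported count of 0, and 0 under an alternative was taken as unchanged, so this share does not measure stability. The 170 also include a value for the order of levels, which is not a count of calls. Vwf and Tfpi in Akt-liver ECs against LSECs were called with only the groups compared (limma adjusted p of 0.00194 and 0.00181), and F8 in MACs against cultured ECs was not (0.0586). With only those groups, Vwf was called lower in MACs than in cultured ECs (log2 fold change -2.98, limma adjusted p = 0.0185).

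The sign changed with 1 library left out for Vwf (lowest -0.24, highest 2.57), Tfpi (-0.013 to 2.41) and F3 (-3.08 to 0.37) in Sox17-RACVECs against RACVECs, and for F8 in Akt-RACVECs against Akt-LECs (-0.15 to 2.13), where leaving out Akt-LEC 1 and Akt-liver EC 1 also gave -0.15. Without Akt-MAC 2 and 3, Thbd had 0.42 in Akt-MACs against MACs and -0.13 in the interaction. The cause of these changes was not tested. Deviations of same-numbered libraries correlated from -0.20 to 0.57, highest for Akt-LECs with Akt-liver ECs at number 1 (0.57) and 2 (0.37) and for Akt-RACVEC 1 with Akt-LEC 1 (0.41). In 0 of 9 comparisons was every pair over 0.1 or every library closest to its own number, so the numbers were not taken as a pairing, and the block changed no count other than the 1 above by over 1.5 times. Depth is unknown.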

Other observations

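Plau and Plaur, the urokinase and its receptor, followed each other over the 24 libraries (Pearson r = 0.74), as did Procr and Plau (0.79) and Tfpi and F8 (0.74), while F3 ran against F8 (-0.71). These are the extremes among pairs of the 9 genes, the libraries fall into groups with shared marker levels, and no test was made. Lman1, whose product carries factors V and VIII from the endoplasmic reticulum with that of Mcfd2, lay between 201 and 359 FPKM in all 24 libraries, MACs and LSECs included, while F8 lay between 1.97 and 2361 FPKM.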
